A study of Mus musculus with 4 samples.

Results

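Immature neutrophils rich in the mRNAs of secondary granule proteins were picked out of CD45+ hematopoietic cells from brain and dura mater. Members were selected on measured values: a cell was a member when its deposited natural-log values of *Ltf*, *Ngp* and *Lcn2* were each 2 or more, those of *Mpo* and *Elane* were below 1, *Siglecf*, *Cd3e* and *Cd79a* were at 0 and *C1qa* was below 1.5, within cells that had over 1000 and under 6000 detected genes and at most 7% mitochondrial transcripts. This rule found 835 members among 14586 cells that passed the cell filter, out of 18969 barcodes. All mice were of the C57BL/6J strain and 8 weeks old, and the tissues were taken on day 3 after a sham operation (S3; labelled CT in the deposit and taken here as the sham group) or on day 3 after photothrombotic injury (PTI; D3), a light-triggered closure of vessels that damages dura mater and brain together. Brain S3, dura mater S3, brain D3 and dura mater D3 have 1 library each, the number of mice behind a library is not given in the sources used here, and the source name of both brain libraries reads CD45-+ although their titles state CD45 positive cells. Tissues were digested with collagenase, dispase and DNase, living CD45+ singlets were sorted by FACS, and RNA was captured in droplets where every molecule received its own identifier (UMI). Since each group is 1 library, how much mice of a group vary is not known and no test was made, and the 95% intervals given for shares (Clopper-Pearson), levels and ratios (exact Poisson) cover counting error only. The methods describe vessels flushed with saline and fixative for imaging and a dura mater preparation without flushing. They do not make clear which applies to the sorted cells, so cells of tissue and of retained blood cannot be told apart. In the preparation without flushing the dura mater was peeled off the skull bone. Cells of skull marrow that may have come along with the dura mater cannot be told apart either.

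Neutrophils are built in the bone marrow in a fixed order. Dividing promyelocytes fill primary granules with myeloperoxidase and serine proteases, myelocytes and metamyelocytes then make the secondary granule proteins such as lactoferrin (*Ltf*), the cathelicidin *Camp*, neutrophilic granule protein (*Ngp*) and lipocalin 2 (*Lcn2*), and later cells make gelatinase granules before they acquire the receptors with which they leave the marrow and find a wound. The secondary granule genes are switched on together by the transcription factor C/EBP epsilon (*Cebpe*), and division stops as these granules are completed. Immature forms are scarce in the blood of a resting animal and are released in greater numbers during inflammation.

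The promoters of 3 secondary granule genes are shown because these genes sit at different points of the order described below: *Fcnb* early, *Ltf* throughout and *Mmp8* late. Each line gives the 250 bases before the RefSeq start site in the mouse build GRCm38.p6, 5′ to 3′ along the strand of the gene, with every TTGCNNAA or its reverse complement TTNNGCAA, the letters of a C/EBP type site, in capitals. *Ltf* lies on the plus strand (chr9:111019042-111019291), *Fcnb* on the minus strand (chr2:28084879-28085128) and *Mmp8* on the plus strand (chr9:7558179-7558428).
Ltf: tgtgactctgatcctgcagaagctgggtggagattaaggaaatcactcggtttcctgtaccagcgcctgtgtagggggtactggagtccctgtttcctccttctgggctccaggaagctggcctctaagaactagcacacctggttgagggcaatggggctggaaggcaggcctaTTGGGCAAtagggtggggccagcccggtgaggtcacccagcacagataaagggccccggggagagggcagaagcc
Fcnb: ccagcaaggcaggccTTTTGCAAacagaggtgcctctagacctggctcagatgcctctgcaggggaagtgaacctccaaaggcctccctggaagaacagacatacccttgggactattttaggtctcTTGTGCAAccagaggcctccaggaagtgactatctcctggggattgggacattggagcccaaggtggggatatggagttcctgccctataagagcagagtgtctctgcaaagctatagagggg
Mmp8: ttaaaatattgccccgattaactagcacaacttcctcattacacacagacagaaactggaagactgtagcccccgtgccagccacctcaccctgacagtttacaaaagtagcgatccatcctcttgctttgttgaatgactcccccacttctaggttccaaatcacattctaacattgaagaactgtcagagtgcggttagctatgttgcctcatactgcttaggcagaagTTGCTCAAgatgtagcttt
The match begins 75 bases before the start of *Ltf*, 235 and 123 bases before that of *Fcnb* and 19 bases before that of *Mmp8*. *Lcn2* has a match at 216 bases and *Ngp* at 138 and 11 bases before the start. Of the 15 secondary granule genes listed, 14 had a promoter in the RefSeq table and 5 of these (35.7%) held a match, against 2582 of 27025 promoters of the same length (9.55%). The match was in 1 of 4 gelatinase granule promoters (*Adam8*), 3 of 15 late neutrophil promoters (*Clec4e*, *Retnlg*, *Slpi*), 1 of 4 promoters of the S100 genes (*S100a9*), 2 of 10 of S phase genes (*Mcm3*, *Pcna*), 0 of 10 of G2/M genes and 0 of 5 of primary granule genes. A match is a run of letters, and binding was not measured.

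The values that chose the members are given as a description. Levels are UMIs of a gene per 1000000 UMIs summed over the members of a library (CPM). *Ltf* stood at 9578 CPM in brain S3, 12082 in the dura mater at S3, 9433 in the brain at D3 and 10793 in dura mater D3. *Ngp* stood at 25897, 36855, 27136 and 33783 CPM in the same order, and *Lcn2* at 11772, 14857, 14164 and 17442 CPM. Of the markers that the rule did not use, the surface protein *Ly6g* was detected in 95.5% to 99.3% of the members of a library, *Cd177* in 97.7% to 99.7% and the collagenase *Mmp8* in 72.9% to 93.8%. These markers were thus found in most members, with *Mmp8* the least even of them. Only *Cd177* among them was at least 2-fold higher than in other neutrophils (defined below) in all libraries. *Ly6g* and *Mmp8* were not, so their detection does not by itself show that members were immature. As a measure of free RNA, 2.05% to 14.5% of T cells and 3.61% to 12.9% of B cells carried a UMI of *Ltf*. Median depths were 6275 to 7605 UMIs in T cells and 3512 to 5501 in B cells, against 11261 to 19647 in members. *Ngp*, also a rule gene, was more widespread, above all in the dura mater. It was in 42.6% (S3) and 37.2% (D3) of dura mater T cells, against at most 13.8% in the brain libraries. In B cells it was in 37.3% and 29.3%, against at most 10.6%. *Lcn2* was in 19.1% and 27.1% of dura mater T cells, against at most 8.21% in the brain libraries. Of 1139 cells that met the threshold for the 3 granule genes, 39 were left out for *Mpo* or *Elane* and 280 for *C1qa*, *Cd79a*, *Siglecf* or *Cd3e*, some of them for both. A cell that failed the rule by *Ltf* alone was common (271 cells). The 23 members whose lowest granule gene lay between 2 and 2.5 had median natural-log values of 2.28 for *Ltf*, 2.93 for *Camp* and 6.18 for *Retnlg*, and the 36 cells just outside (1.5 to 2) had 1.73, 3.38 and 6.08. The 812 members well inside had 4.73, 5.78 and 4.43, so the edge of the rule ran through cells rich in *Retnlg*, a late transcript.

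Members made up 3.44% of cells in brain S3 (129 of 3748; 2.88 to 4.08%), 9.92% in the dura mater at S3 (354 of 3569; 8.96 to 10.9%), 3.09% in the brain at D3 (142 of 4601; 2.61 to 3.63%) and 7.87% in dura mater D3 (210 of 2668; 6.88 to 8.96%). The share was higher in the dura mater than in the brain on both days, and intervals of S3 and D3 overlapped in the brain and touched in the dura mater. Other neutrophils were cells with *S100a8* and *S100a9* at 4 or more, a *Csf3r* transcript, and *Ltf*, *Ngp*, *Mpo* and *Elane* below 1. They numbered 202, 94, 117 and 61, and precursors with *Mpo* and *Elane* at 2 or more numbered 1, 10, 7 and 12. Of these 3 groups together, members were 38.9% in brain S3 (33.6 to 44.3%), 77.3% in the dura mater at S3 (73.2 to 81.1%), 53.4% in the brain at D3 (47.2 to 59.5%) and 74.2% in dura mater D3 (68.7 to 79.2%). Within these 3 groups the brain thus held a larger part of other neutrophils, less so at D3. Free *Ngp*, more widespread in the dura mater, may have put neutrophils there above the limit of 1, which was not tested. Among all cells with *S100a8* and *S100a9* at 4 or more, whatever their *Ngp*, the gap between the tissues was smaller. Brain members were then 29.9% at S3 (25.6 to 34.4%) and 42.5% at D3 (37.2 to 48.0%). Those of the dura mater were 51.2% (47.4 to 55.0%) and 53.7% (48.6 to 58.7%). The sorted and loaded cells of a tissue set these shares, and the CD45+ cells of the 2 tissues differ in their other types.

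**Figure D1:**
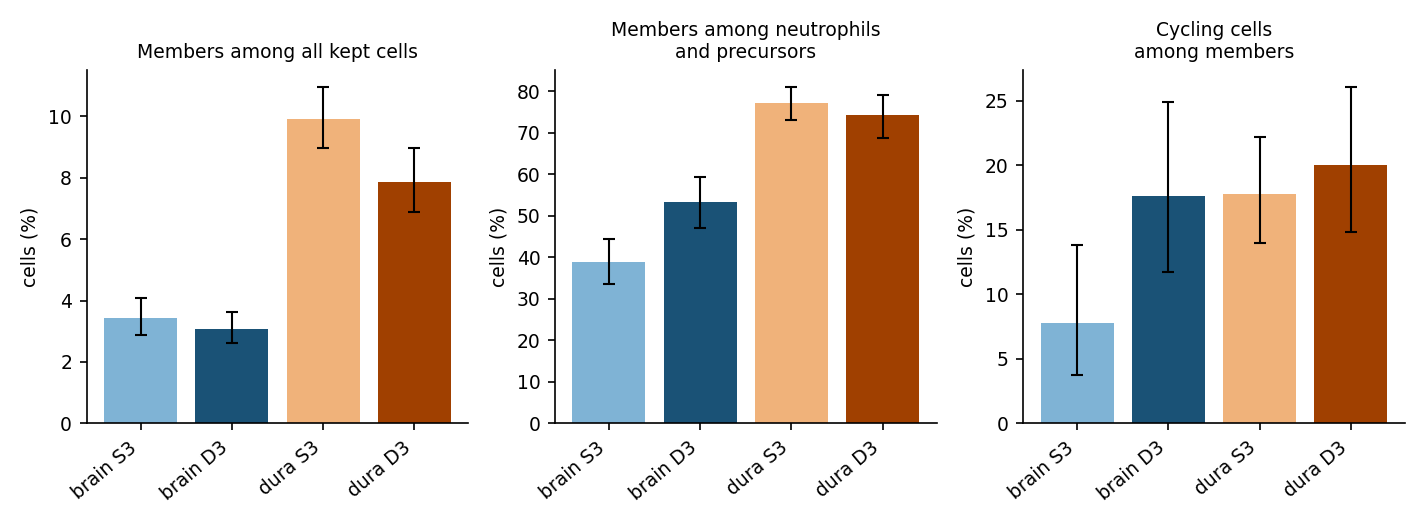
Members as a percentage of all cells that passed the filter (left) and of members, other neutrophils and precursors (middle), and cycling cells as a percentage of members (right), in the 4 libraries. Bars are shares and whiskers exact binomial 95% intervals. Both dura mater libraries stand above both brain libraries in the left and middle panels (77.3% and 74.2% against 38.9% and 53.4% in the middle), and brain S3 has the lowest share of cycling members (7.75%).

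Members were not uniform, and their spread followed the order of granule synthesis in every library. *Camp* and *Chil3*, a chitinase-like secretory protein of immature granulocytes, rose and fell together from cell to cell (Spearman's rho 0.81 to 0.87), and each ran against *Retnlg*, a secreted protein of late neutrophils (rho −0.64 to −0.79 and −0.68 to −0.86). *Mmp8* ran with *Retnlg* (rho 0.51 in brain S3 and 0.83 to 0.85 in the others). These correlations are over the 129, 354, 142 and 210 cells of a library, which share a library and a depth gradient, since the UMIs of a cell also ran against *Retnlg* (rho −0.30 to −0.62).

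**Figure D2:**
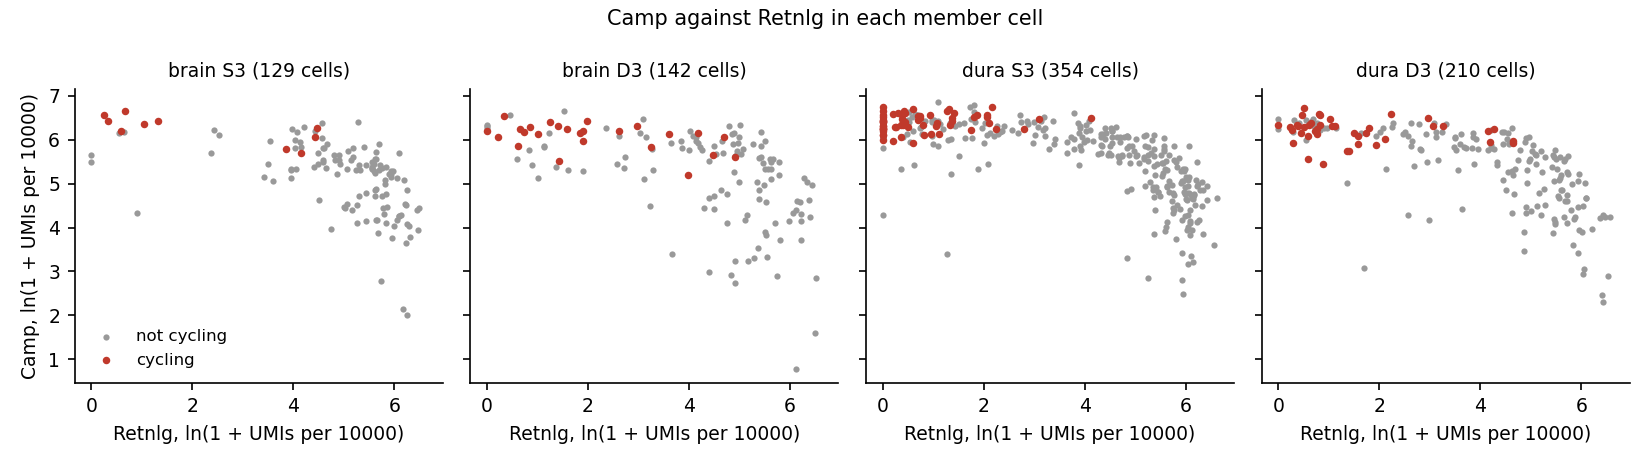
Natural-log values of Camp (vertical axis) against Retnlg (horizontal axis) in each member, 1 point per cell and 1 panel per library, with cycling cells in red. High Camp goes with low Retnlg in every panel, the left end is well filled in dura mater S3 (127 members with Retnlg below 2) and sparse in brain S3 (11 members), and no red point lies at Retnlg of 5 or more.

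To show this gradient in levels, members were parted by their natural-log value of *Retnlg* into steps below 2, from 2 to 5 and of 5 or more, limits that were set after the values had been seen. Below 2 lay 8.53% of members in brain S3, 35.9% in the dura mater at S3, 21.8% in the brain at D3 and 26.2% in dura mater D3. At 5 or more lay 58.9%, 35.3%, 35.9% and 32.4%. Brain S3 had the smallest share of its members in the lowest step and the largest share in the highest. From the lowest to the highest step *Camp* went down in every library, from 59519 to 14879 CPM in brain S3, 57872 to 16568 in the dura mater at S3, 44124 to 16018 in the brain at D3 and 50789 to 14941 in dura mater D3. *Fcnb*, a pattern-recognition ficolin of early granules, went from 541 to 0 CPM in brain S3, 590 to 0.905 in the dura mater at S3, 296 to 28.5 in the brain at D3 and 626 to 25.2 in dura mater D3. *Cebpe* went from 513 to 91.7 CPM, 649 to 115, 700 to 106 and 603 to 111. *Ltf* was highest in the middle step in brain S3 (11910 CPM), dura mater S3 (16034) and dura mater D3 (12710), whereas in brain D3 the lowest and the middle step were alike (10197 and 10116). *Cd177*, a surface glycoprotein of neutrophils, stayed between 774 and 1187 CPM in all steps of all libraries.

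The late end carried genes of gelatinase granules and of exit from the marrow, and also *Mmp8* of the secondary granule list. *Mmp8* went from 158 to 4225 CPM in brain S3, from 215 to 5050 in dura mater S3, from 17.9 to 3569 in brain D3 and from 87.0 to 3752 in dura mater D3 between the lowest and the highest step. *Mmp9*, the gelatinase itself, went from 209 to 340 CPM at the lowest step to 2831 to 3311 CPM at the highest. *Cxcr2*, the receptor for neutrophil-attracting chemokines, went from 37.0 to 48.8 CPM to 541 to 624 CPM, and *S100a6* from 279 to 867 CPM to 5449 to 8255 CPM. The early cells were thus nearly without *Cxcr2* in all 4 libraries. *Il1b* was between 97.0 and 141 CPM at the lowest step in brain S3 and both dura mater libraries but 954 CPM in brain D3, where T and B cells, read here for free RNA, held 702 CPM against 254 to 513 CPM in the other libraries.

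**Figure D3:**
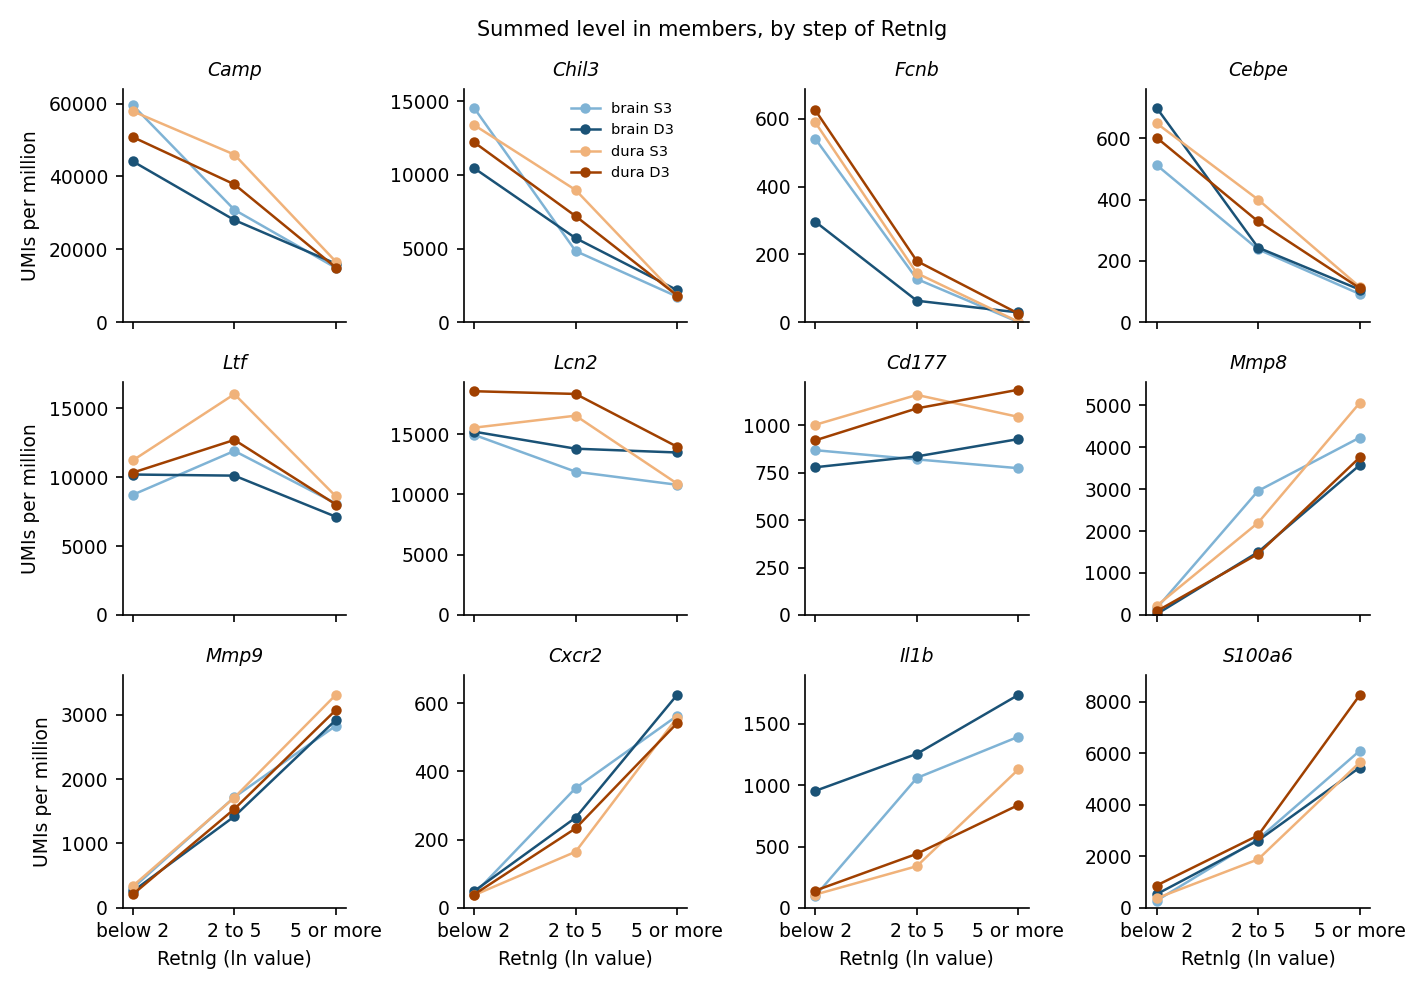
Summed level (CPM) of 12 genes in members parted into 3 steps of Retnlg, with 1 line per library. Camp, Chil3, Fcnb and Cebpe decline from left to right, and Ltf peaks in the middle in 3 libraries. Lcn2 ends lower than it starts in every library, Cd177 varies little, and Mmp8, Mmp9, Cxcr2 and S100a6 climb. Brain D3 starts low for Fcnb (296) and high for Il1b (954).

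Transcripts of cell division were concentrated in members at the early end. A member was called cycling with 5 or more UMIs of 24 S and G2/M phase genes after each cell had been thinned to 2000 UMIs. Cycling were 7.75% of members in brain S3 (10 cells; 3.78 to 13.8%), 17.8% in the dura mater at S3 (63 cells; 13.95 to 22.2%), 17.6% in the brain at D3 (25 cells; 11.7 to 24.9%) and 20% in dura mater D3 (42 cells; 14.8 to 26.1%). Brain S3 was the lowest, although its interval overlapped that of brain D3, and the other libraries did not differ beyond their intervals. With a limit of 10 UMIs in place of 5 the shares were 4.65% in brain S3 (1.73 to 9.85%), 9.60% in the dura mater at S3, 8.45% in the brain at D3 and 5.71% in dura mater D3, and the interval of brain S3 then overlapped those of all other libraries. The same count gave 0 to 1.49% in other neutrophils and 1.45% to 3.55% in T and B cells, and 1, 7, 8 and 3 members lay at a count of 4 or 5. In the lowest *Retnlg* step 43.3% to 58.2% of members were cycling, in the middle step 7.84% to 15.0% and in the highest step 0 of 76, 125, 51 and 68 cells.

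Against members that did not cycle, 99 of 3251 genes tested in every library were at least 2-fold higher in cycling members in all of them (3.05%) and 194 were at least 2-fold lower (5.97%). Here and below a gene was called when its CPM differed at least 2-fold with an exact 95% interval that left out equality, among genes whose UMIs in the compared groups summed to 50 or more. Besides the cell cycle genes that define the split, *Chil3* (11368 to 15331 against 2807 to 7103 CPM), *Fcnb* (245 to 749 against 29.7 to 149 CPM) and *Cebpe* (539 to 764 against 144 to 329 CPM) were higher in all libraries. *Mmp8* (54.3 to 290 against 2008 to 3723 CPM), *Mmp9*, *Adam8* and the metal transporter *Slc11a1* of the gelatinase granule list were lower, as were 9 of 15 late neutrophil genes tested (*Retnlg*, *Cxcr2*, *Il1b*, *Il1r2*, *Fpr1*, *Clec4d*, *Clec4e*, *Slpi*, *Trem1*) and 8 of 12 NF-kB genes. *S100a6* of 4 S100 genes, *Irf8* of 7 transcription factors, *Cxcr2* and *Itgal* of 11 adhesion receptors, *Bst2*, *Irf7* and *Isg15* of 5 interferon genes, *Socs3* of 5 acute response genes and *Atf3* and *Junb* of 11 dissociation genes were lower as well. Of the NADPH oxidase, hypoxia, eicosanoid and chaperone lists 0 genes were called in all libraries. Traces of the primary granule programme sat in the same cells. *Ms4a3*, a marker of granulocyte and monocyte precursors that the rule did not use, was at 96.6 CPM in cycling and 1.32 in other members of brain S3, 116 and 29.7 in dura mater S3, 43.9 and 8.39 in brain D3 and 133 and 22.4 in dura mater D3. *Prtn3*, the proteinase 3 gene, was at 37.2 and 0.661, 51.9 and 5.77, 37.2 and 12.1, and 96.1 and 19.0 CPM. Both were higher in cycling members of every library, and T and B cells held at most 5.18 CPM of *Ms4a3* and 10.5 CPM of *Prtn3*. Other neutrophils held 0 CPM of *Ms4a3* in all libraries, and 6.78, 12.4, 34.6 and 30.6 CPM of *Prtn3*.

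A small part of the members expressed *Olfm4*, olfactomedin 4, a secondary granule protein known to mark only a subset of neutrophils. At least 20 UMIs of *Olfm4* were found in 10 of 129 members in brain S3 (7.75%), 16 of 354 in the dura mater at S3 (4.52%), 7 of 142 in brain D3 (4.93%) and 7 of 210 in dura mater D3 (3.33%). The intervals of these shares overlapped. Only 7 further members had any UMI of *Olfm4*, with at most 7 each, and the rest had none, so its expression was nearly all or none. The highest cell of each library held 103, 78, 99 and 149 UMIs. No other neutrophil reached 20 UMIs, but this limit was not scaled to depth and other neutrophils were shallower. The highest of them held 15 UMIs, in brain S3, where their median depth was 3785 UMIs against 11261 in members. Of the 40 high members 4 were cycling. *Ltf* was at 6993 to 12438 CPM in *Olfm4*-high members and 9526 to 12067 CPM in the remaining members. The limit of 20 UMIs was set after the values had been seen.

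Against other neutrophils of the same library, 154 of 4559 genes tested in all 4 libraries were at least 2-fold higher in members throughout (3.38%) and 289 were at least 2-fold lower throughout (6.34%). Members were deeper (median UMIs 11261, 11771, 15671 and 19647 against 3785, 4559, 4078 and 6495), and *Ltf*, *Ngp*, *Lcn2*, *S100a8*, *S100a9*, *Csf3r*, *Mpo* and *Elane* were used to choose the groups. Of the 15 secondary granule genes 11 were higher throughout, 8 of them not used by the choice (*Camp*, *Cd177*, *Chil3*, *Fcnb*, *Itgb2l*, *Abca13*, *Olfm4* and *Cybb*). *Camp* was at 26911, 45788, 30255 and 37488 CPM in members and 19.5, 101, 25.02 and 56.8 CPM in other neutrophils. *Mmp8*, *Hp*, *Pglyrp1* and *Cyba* were not called in every library. *Cebpe* was at 204, 465, 355 and 381 CPM in members against 17.8, 37.2, 13.1 and 10.9 in other neutrophils. *Klf5*, another transcription factor, was higher too, while *Cebpb*, the factor of emergency and late granulopoiesis, was lower (2569, 1268, 2033 and 1343 against 5678, 4759, 4296 and 4411 CPM), as was *Cebpa*.

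Members held less mRNA of several homing receptors than other neutrophils. Of 11 adhesion and chemotaxis receptors 5 were lower throughout, among them *Cxcr2*, the marrow-retention receptor *Cxcr4*, *Ccr1* and the selectin ligand *Selplg*. *Cxcr2* was at 413, 183, 282 and 230 CPM in members and 1040, 933, 846 and 1055 in other neutrophils. *Ltb4r1*, the receptor for leukotriene B4, went the other way at 362, 449, 397 and 475 CPM against 109, 90.3, 118 and 125, and so did *Lta4h*, the enzyme that makes leukotriene B4 (209, 411, 226 and 336 against 39.8, 28.3, 22.6 and 39.3 CPM). Of 16 late neutrophil genes 9 were lower, of which *Csf3r* was used to choose other neutrophils and 8 genes were not, among them *Il1b* (1092, 389, 1275 and 419 against 6568, 6399, 7925 and 6287 CPM), and none was higher throughout. *Retnlg* was higher than in other neutrophils in brain S3 (log2 ratio 1.14) and lower in dura mater S3 (−1.002) and dura mater D3 (−1.35), and in brain D3 it was not called (−0.41). Of the inflammatory NF-kB list 6 of 12 were lower, of the interferon-stimulated list 3 of 8 (*Isg15*, *Oasl2*, *Rsad2*) and of the genes induced by dissociation 5 of 11, and none of these was higher. Of 12 G2/M genes 8 were higher, with *Cdk1* at 40.9, 122, 123 and 106 CPM against 20.3, 1.77, 4.77 and 2.18, and of 2 S phase genes tested 0 were called. *Mmp25* of 6 gelatinase genes was higher, 0 of 4 S100 genes were called, *Cybb* was the sole call of 6 NADPH oxidase genes, *Slc2a1* of 9 hypoxia genes and *Hspe1* of 8 chaperones were lower, and of the acute response list *Cd177* and *Wfdc21* were higher and *Bcl3*, *Il4ra* and *Socs3* lower. Outside the lists the largest ratios were those of *Orm1*, an acute phase lipid carrier (80.8, 186, 164 and 196 against 0, 1.77, 0 and 0 CPM), *Inhba*, a subunit of activin A (81.3, 159, 90.3 and 87.6 against 1.70, 3.54, 0 and 0), *Olfml2b*, and *Serpinb1a*, an inhibitor of neutrophil serine proteases (398, 580, 586 and 732 against 22.9, 49.6, 15.5 and 15.3). *Fgl2*, *H2-Q10*, *Gm5150*, *Jaml*, *Pla2g7*, *Sirpb1b*, the inflammasome sensor *Nlrp3* and *Tspan13* led the genes that were lower.

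In the sham state members of the brain were later in this order than members of the dura mater. Of 6650 genes tested 314 were higher in brain S3 (4.72%) and 425 lower (6.39%). *Retnlg* was at 18208 CPM in brain S3 and 8567 in dura mater S3, *Mmp8* at 3196 and 1802, *Camp* at 26911 and 45788, *Chil3* at 4646 and 9677, *Fcnb* at 122 and 337, and *Cebpe* at 204 and 465. Of 16 late neutrophil genes 10 were higher and 0 lower (median log2 ratio 1.09, beside −0.03 for all genes), led by *Ifitm1* (61.1 against 11.9 CPM; log2 ratio 2.36, 1.90 to 2.83), *Clec4d* (275 against 96.1) and *Il1b* (1092 against 389). Of 11 S phase genes 10 were lower (median −1.94) and of 12 G2/M genes 9 were lower (median −1.12), with *Mki67* at 90.9 against 232 CPM and *Tyms* at 3.37 against 32.7. Of the 12 secondary granule genes that the rule did not use *Chil3* and *Fcnb* were lower and the others were not called (median −0.23), and 2 of 3 primary granule genes were lower (*Ms4a3*, 15.7 against 56.8 CPM; *Prtn3*, 6.17 against 20.2 CPM). The split moved with the scaling: with totals that leave out the granule and *S100a8*/*S100a9* genes 232 genes were higher and 580 lower, and with equal weight for each cell 227 and 514, with 3 of 16 late genes still called (median 0.71).

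Inflammatory transcripts were also higher in the sham brain. Of 12 NF-kB genes 8 were higher in brain S3 (median 1.16), with *Cxcl2* at 1042 against 229 CPM, *Ccl4* at 167 against 30.8 CPM and *Ptgs2*, the inducible cyclooxygenase, at 200 against 88.4 CPM. Of 11 adhesion and chemotaxis receptors 6 were higher (*Cxcr2*, *Cxcr4*, *Ccr1*, *Itga4*, *Itgal*, *Selplg*; median 1.17). Of 12 genes that enzymatic digestion is known to induce, 6 were higher as well (median 0.90), with *Atf3* at 136 against 17.2 CPM, *Jund* at 730 against 241 CPM and *Hspa1a* at 298 against 95.2 CPM. *Hspa1a* was at 1949 against 260 CPM in T and B cells of the same libraries, and the part of the digestion in the other lists was not tested. When cycling members were left out, 6 of 16 late genes (median 0.79), 5 of 12 NF-kB genes and 4 of 11 receptors were still higher, and the calls over all genes became 260 higher and 161 lower. At the outer *Retnlg* steps the 2 tissues were closer in *Camp* than over all members (26911 CPM in brain S3 and 45788 in dura mater S3). It was at 59519 and 57872 CPM at the lowest step and at 14879 and 16568 at the highest. In the middle step *Camp* stayed lower in brain S3 (30822 against 45979 CPM). *Ltf*, a rule gene, was lower in brain S3 at the lowest (8726 against 11225 CPM) and the middle step (11910 against 16034). In the middle step *Cxcr2* (351 and 164 CPM) and *Il1b* (1059 and 340 CPM) were higher in brain S3 than in dura mater S3. The remaining lists gave 1 of 6 gelatinase genes (*Slc11a1*), 1 of 4 S100 genes (*S100a6*), 2 of 8 interferon genes (*Oasl2*, *Zbp1*), 2 of 7 acute response genes (*Socs3*, *Bcl3*), 1 of 9 hypoxia genes and 1 of 9 chaperones higher, 0 of 6 NADPH oxidase and 0 of 5 eicosanoid genes called, and *Gfi1*, *Cebpe* and *Klf5* lower but *Cebpb* higher among 10 transcription factors.

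**Figure D4:**
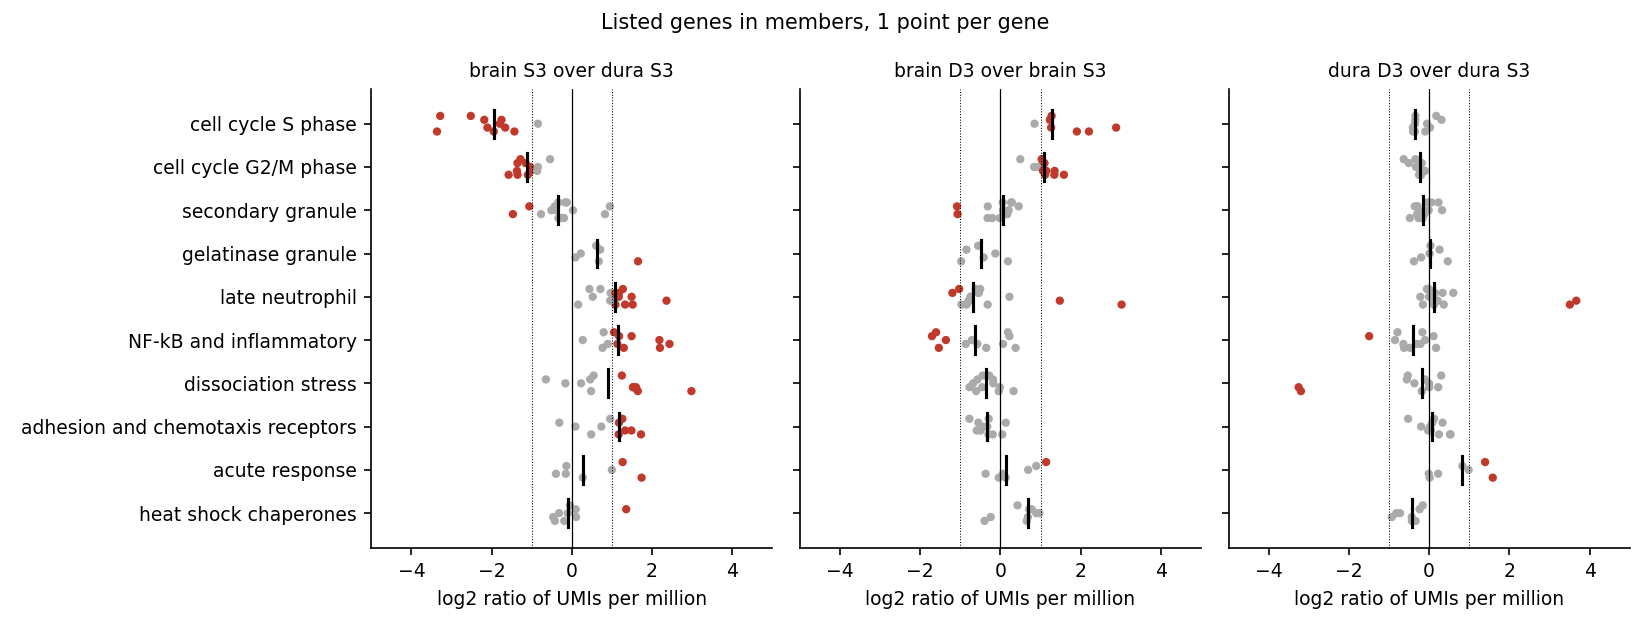
Log2 CPM ratio for each gene of 10 lists in members, 1 point per tested gene, for brain S3 over dura mater S3 (left), brain D3 over brain S3 (middle) and dura mater D3 over dura mater S3 (right). Red points are genes called at 2-fold (dotted lines), black bars list medians. The cell cycle lists sit left of 0 in the left panel (medians −1.94 and −1.12), right of 0 in the middle panel (1.27 and 1.08) and near 0 in the right panel.

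In the injured brain the summed UMIs of members held more cell cycle mRNA than in the sham brain. Cycling members numbered 10 in brain S3 and 25 in brain D3, and the intervals of their shares overlapped (3.78 to 13.8% and 11.7 to 24.9%). The ratios below count UMIs and not cells. Of 5679 genes tested 347 were higher in brain D3 than in brain S3 (6.11%) and 98 lower (1.73%). Without members that also held genes of other cell types (described below) these counts were 251 and 95. Of 7 S phase genes tested 6 were higher (median log2 ratio 1.27, beside 0.07 for all genes) and of 12 G2/M genes 9 were higher (median 1.08). *Mki67* was at 90.9 CPM in brain S3 and 194 in brain D3, *Cdk1* at 40.9 and 123, and *Rrm2*, a subunit of ribonucleotide reductase, at 21.3 and 79.7. The levels of brain D3 were near those of both dura mater libraries (*Cdk1* at 122 CPM in S3 and 106 in D3), and brain S3 was the low one. The late neutrophil list moved the other way by its median (−0.68) with *Fpr1* and *Stfa2l1* lower and *Ifitm1* and *Wfdc17* higher. *Retnlg* was at 18208 and 10147 CPM, which misses the call (log2 ratio −0.84, −0.87 to −0.82), and *Mmp8* was lower at 3196 and 1522 CPM (−1.07, −1.13 to −1.01). *Camp* had a log2 ratio of 0.17 (0.15 to 0.19). Of the 12 secondary granule genes not used by the rule 2 were called, both lower (*Mmp8*, *Olfm4*). The *Olfm4* call rests on few cells, since 10 members of brain S3 and 7 of brain D3 held at least 20 UMIs. The intervals of these shares overlapped, so a fall in *Olfm4* is not shown. *Ltf*, *Ngp* and *Lcn2*, by which members were chosen, had ratios between −0.02 and 0.27, given as a description.

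Several NF-kB genes were lower in the injured brain. Of 12 NF-kB genes 4 were lower and 0 higher in brain D3: *Ptgs2* (200 to 61.3 CPM), the interleukin 1 antagonist *Il1rn* (141 to 46.3 CPM), *Tnfaip3* (180 to 62.1 CPM) and *Cxcl2* (1042 to 406 CPM). *Il1b* was at 1092 and 1275 CPM, and *Tnf* at 70.1 and 79.7 CPM. *Thbs1*, which encodes the anti-angiogenic matrix protein thrombospondin 1, was at 2294 CPM in brain S3 and 667 in brain D3. Without cycling members *Thbs1* was at 2651 and 837 CPM and *Ptgs2* at 235 and 81.8 CPM. Of 12 genes induced by dissociation 0 were called (median −0.36), and of 11 adhesion receptors, 6 NADPH oxidase genes, 8 interferon genes, 9 chaperones, 5 eicosanoid genes, 6 gelatinase genes and 4 S100 genes 0 were called, with medians between −0.49 and 0.68. *Bnip3* of 10 hypoxia genes, *Socs3* of 7 acute response genes, *Cebpa* of 9 transcription factors and *Prtn3* of 3 primary granule genes were higher.

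Some of the largest ratios in injured brain rested on few cells or on transcripts that T and B cells of the library held as well. What part of the level in T and B cells was their own mRNA was not tested. *Arg1* (0 to 50.4 CPM, 134 UMIs) came from 18 members of which the top 5 held 90.3% of its UMIs (157 CPM in T and B cells and 902 in other neutrophils of brain D3), and without members that also held genes of other cell types (described below) it was at 22.0 CPM. *Apoe* went from 588 to 3139 CPM, but T and B cells held 3146 and 9721 CPM. *Spp1* (19.1 to 172 CPM; 5.39 and 471 in T and B cells) and *Mif* (12.3 to 82.0 CPM; 235 and 321) were likewise below the level in T and B cells at D3. *Ms4a6d*, *Fcgr1*, *Lgmn*, *Mt1* and *Fcrls*, genes of monocytes, macrophages or microglia, completed the list of the largest ratios, and the macrophage markers summed to 105 CPM in members of brain S3 and 214 in brain D3 (1624 and 4886 in T and B cells). *C1qa*, among these markers, was limited in members but not in T and B cells. Whether members or free RNA carried them was not tested.

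In the dura mater the members differed little between sham and PTI. Of 7246 genes tested 79 were higher in dura mater D3 (1.09%) and 133 lower (1.84%). The median gene was at −0.19, and with ratios centred on it 102 genes were higher and 63 lower. Of the 12 secondary granule genes not used by the rule 0 were called (median −0.28), of 11 S phase genes 0 (−0.34), of 12 G2/M genes 0 (−0.23), of 6 gelatinase genes 0 (0.02), of 11 adhesion receptors 0 (0.08), and likewise 0 of 4 S100 genes, 6 NADPH oxidase genes, 10 hypoxia genes, 5 eicosanoid genes and 8 chaperones. Differences under 2-fold are not covered by these counts. The acute response list had the highest median of the neutrophil lists (0.83), with *Socs3*, the feedback inhibitor of interleukin 6 and G-CSF signalling, at 13.98 and 36.7 CPM (1.39, 0.99 to 1.81) and *Bcl3* at 9.06 and 27.2 CPM (1.58, 1.10 to 2.09). T and B cells of the dura mater held more of both, 86.6 and 178 CPM of *Socs3* and 54.3 and 41.1 of *Bcl3*, and with centred ratios 4 of 7 genes of the list were higher. *Lrg1*, a secreted glycoprotein of neutrophil granules, was at 418 and 742 CPM in the dura mater and at 381 and 707 CPM in the brain, below the 2-fold limit in both (0.83, 0.75 to 0.91, and 0.89, 0.76 to 1.02). Of 12 NF-kB genes *Ptgs2* was lower (88.4 to 31.3 CPM, with 65.4 and 80.9 CPM in T and B cells). *Hspa1a* and *Hspa1b* of 12 dissociation genes and *Irf8* of 10 transcription factors were lower too. Of 10 interferon genes *Ifit3* and *Oasl2* were higher and *Bst2* lower. The dendritic cell marker *Siglech* was also called lower, with 62 UMIs in dura mater S3 and 0 in dura mater D3. Whether dendritic cell transcripts carried the calls of *Irf8* and *Bst2* was not tested.

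Late neutrophil genes were called at D3 in the dura mater through 2 genes. *Ifitm1*, an interferon-induced membrane protein, was at 61.1 CPM in brain S3, 11.9 in the dura mater at S3, 170 in the brain at D3 and 151 in dura mater D3. Both injured libraries were high and dura mater S3 was the lowest, with log2 ratios of D3 over S3 of 3.67 in the dura mater (3.29 to 4.06) and 1.48 in the brain (1.17 to 1.79). Other neutrophils held more in each library (713, 262, 2640 and 3649 CPM), again with both injured libraries high. T and B cells held 16.4, 9.26, 70.5 and 82.8 CPM, so the level in dura mater S3 was near that in T and B cells. *Wfdc17*, a secreted protease inhibitor-like protein, was at 24.7, 9.82, 200 and 112 CPM (3.51 in the dura mater and 3.02 in the brain). In other neutrophils it was at 458, 147, 2849 and 3055 CPM. T and B cells held 81.0, 76.8, 116 and 311 CPM of *Wfdc17*, more than members in all libraries except brain D3, and its part from free RNA was not tested. *Asprv1*, an aspartic protease, was at 69.0, 31.4, 161 and 179 CPM in members and at most 10.4 CPM in T and B cells. Both D3 libraries were above both S3 libraries, and the top 5 cells held 24.1% to 55.3% of its UMIs. Among the stefin genes *Stfa1*, *Stfa2* and *Gm5483*, near-identical neighbours between which reads are hard to assign, large ratios came from few cells (*Stfa2* from 2 cells in dura mater S3 and 16 in dura mater D3, 3.399 and 69.3 CPM). *Col1a2*, *Mgp*, *Col1a1* and *Fabp4*, genes of fibroblasts and endothelial cells, completed the largest ratios upward, and *Ccl17*, *Cxcl9*, *Mgl2* and *Acad9* were among those downward. *Ccl17* came from 2 cells and *Cxcl9* from 1 cell in dura mater S3.

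**Figure D5:**
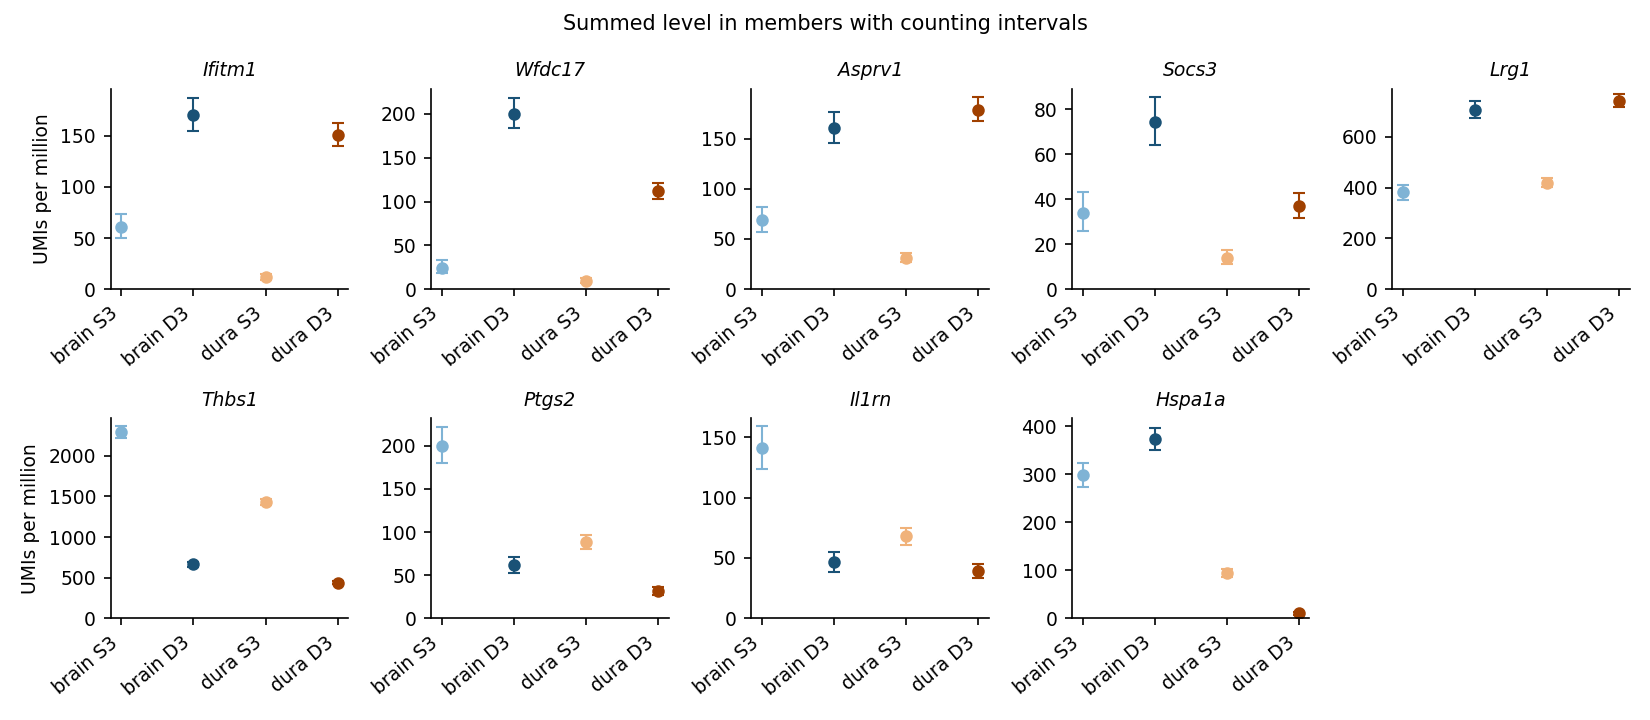
Summed level (CPM) of 9 genes in members of brain S3, brain D3, dura mater S3 and dura mater D3, with exact Poisson 95% intervals. Ifitm1, Wfdc17, Asprv1, Socs3 and Lrg1 are higher at D3 in both tissues (Lrg1 by under 2-fold), Thbs1, Ptgs2 and Il1rn lower (Il1rn by under 2-fold in the dura mater), and Hspa1a is at 10.4 in dura mater D3 against 95.2 to 373 elsewhere.

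The calls of the 2 tissues overlapped in part, and each tissue has its own sham library. Higher in both were 26 genes, 32.9% of the 79 of the dura mater and 7.49% of the 347 of the brain. Among them were *Ifitm1*, *Wfdc17*, *Asprv1*, *Socs3* and *Prtn3* (6.17 to 19.2 CPM in the brain and 20.2 to 44.0 CPM in the dura mater), together with monocyte and macrophage genes such as *Ccr2*, *F13a1* and *Stab1*. Chosen after their values were seen, *Lipg*, the endothelial lipase gene, was at 1.12, 1.51, 19.2 and 14.5 CPM, *Upp1*, uridine phosphorylase, at 24.7, 11.1, 50.8 and 51.5 CPM, and *Csf2rb2*, a receptor subunit for interleukin 3, at 2.80, 4.34, 17.3 and 14.5 CPM (2.18, 3.81, 12.1 and 11 in T and B cells). Lower in both were 5 genes, 3.76% of 133 and 5.10% of 98: *Thbs1* (1430 to 436 CPM in the dura mater; −1.71 and −1.78 in the 2 tissues), *Ptgs2*, the prostaglandin receptor gene *Ptger4* (50.6 to 24.7 CPM in the dura mater and 50.5 to 24.8 in the brain), *Lamb3* and *AC163354.1*. *Thbs1* was also lower at D3 by value in other neutrophils (1417, 2170, 797 and 784 CPM in brain S3, dura mater S3, brain D3 and dura mater D3). A further 11 genes were called in opposite directions, 5.19% of the calls of the dura mater and 2.47% of those of the brain.

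Between the tissues at D3 the brain was higher in 496 of 6699 genes (7.4%) and lower in 51 (0.761%). Without members that also held genes of other cell types (described below) these counts were 334 and 41. The median gene was at 0.23, and with centred ratios 351 were higher and 89 lower, or 338 and 98 with totals that leave out granule genes. The early to late difference of the sham state was not seen at this size: 1 of 16 late genes was higher (*Il1b*, 1275 against 419 CPM; median 0.16), 0 of 11 S phase (−0.47) and 0 of 12 G2/M genes (0.22) were called, and of the 12 secondary granule genes not used by the rule *Fcnb* was lower (129 against 309 CPM; median −0.13). Of the primary granule genes *Ms4a3* (18.4 against 58.3 CPM) and *Prtn3* (19.2 against 44.0 CPM) were lower in the brain. Of 12 NF-kB genes 4 were higher (*Il1b*, *Tnf*, *Ccl3*, *Ccl4*), and of 12 dissociation genes 5 (*Atf3*, *Dusp1*, *Jun*, *Hspa1a*, *Hspa1b*). Of 9 heat shock chaperones 5 were higher (median 1.05) and 3 of 9 with centred ratios. *Hspa1a*, the inducible chaperone, was at 298, 95.2, 373 and 10.4 CPM in members, 238, 60.2, 381 and 10.9 CPM in other neutrophils and 1949, 260, 970 and 190 CPM in T and B cells of brain S3, dura mater S3, brain D3 and dura mater D3. Dura mater D3 was the lowest library in each of these sets of cells. Of 11 adhesion receptors *Cxcr4* and *Itga4* were higher, of 10 transcription factors *Irf8* and *Cebpa*, of 9 interferon genes *Isg15*, *Zbp1* and *Bst2*, of 6 gelatinase genes *Slc11a1*, of 11 hypoxia genes *Bnip3* and *Egln3*, of 7 acute response genes *Socs3* (0 with centred ratios), and of 4 S100, 6 NADPH oxidase and 5 eicosanoid genes 0.

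Genes of other cell types were few in members but not absent. *Cd3e* and *Cd79a* were at 0 by the rule, and the 4 T cell markers summed to 12.7 to 25.2 CPM against 1540 to 2464 CPM in T and B cells, the 4 B cell markers to 2.70 to 9.44 CPM. Eosinophil markers summed to 0 to 0.830 CPM, with *Epx* at 0 in all libraries, basophil and mast cell markers to 0.376 to 5.60, erythroid to 0.752 to 19.1, dendritic cell to 4.15 to 25.2 and NK cell markers to 8.27 to 55.5 CPM. All 5 macrophage markers were detected in every library and summed to 69.1 to 214 CPM, against 1624 to 4886 CPM in T and B cells. *C1qa*, among these markers, was limited by the rule in members but not in T and B cells, so the gates set part of this gap. The 5 monocyte markers summed to 750 to 997 CPM, most of it *Ly6c2* (634 to 804 CPM), and *Ccr2* was at 23.6, 11.3, 88.8 and 34.7 CPM and *F13a1* at 12.3, 4.91, 53.0 and 17.2 CPM, each called higher at D3 in both tissues and below T and B cells (118 to 240 and 54.8 to 213 CPM) in every library. *Xist* had 0 UMIs in members of all libraries and the Y-linked *Ddx3y* was at 62.5 to 107 CPM. Members with more than 10 UMIs per 10000 of the MHC class II genes, or more than 5 of the markers of macrophages, T, B, NK, erythroid or dendritic cells, numbered 9, 23, 14 and 10 (6.98%, 6.50%, 9.86% and 4.76%). In the median member MHC class II genes made 1.15 to 1.47 UMIs per 10000 and in the highest member of a library 207 to 552, and 5 cells held 65.0% to 79.2% of these UMIs. Without such cells *H2-Ab1* was at 34.2, 31.7, 26.8 and 29.3 CPM, and such cells were defined in part by these genes. Automatic doublet calling marked 0 to 3 cells of a library and thus did not work, and removal of the highest scores by the expected rate took 3, 8, 4 and 1 members. Barcodes shared between libraries numbered 3 to 11 a pair, and none was a member in both.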

How the data were processed

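Single-cell RNA libraries of sorted CD45+ cells were sequenced from brain and dura mater at S3 and D3, 1 library per group, with 3515 to 5925 barcodes and 49003977 to 115154317 UMIs. The authors aligned reads to mm10 and counted UMIs with Cell Ranger 3.1.0, and the deposited matrices hold natural log values made with Seurat 3.1.0, ln of 1 plus the UMIs of a gene per 10000 UMIs of its cell. Genes seen in fewer than 3 cells of a library are not listed. Because every cell is a whole-number multiple of its smallest value, UMI counts were recovered exactly. The study removed doublets and cells over 7% mitochondrial reads and under 1000 or over 6000 genes and then drew equal numbers of cells. The matrices hold 18969 barcodes with at least 500 to 507 UMIs each, among them barcodes outside these limits, so the limits on genes and mitochondrial reads were applied here and doublets were kept, with their removal as an alternative.

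UMIs were summed over members per library and given as CPM. Ratios carry exact conditional Poisson 95% intervals and were computed for genes whose UMIs in the compared groups summed to 50 or more, and a gene with 0 UMIs in a group was set to 3 UMIs there. Calls need a 2-fold difference and an interval that leaves out 0 on the log2 scale. PCR copies are removed by the UMIs, but cells of a library share its mice, so intervals cover counting error only. T and B cells (*Cd3e*, or *Cd79a* and *Ms4a1*, above 1) were read for free RNA. No limit on *C1qa* was set for them. Their levels can also hold their own mRNA or that of doublets, so they need not be free RNA alone. Scores of the cell cycle were counted after thinning to 2000 UMIs. The scripts were tested on simulated data. Named genes were the members of 28 lists (207 genes) and, per comparison, up to 10 genes called with the largest ratio in each direction with at least 100 UMIs. The members and the lists were chosen with earlier results of these data known. Shares of members were recomputed with other thresholds, no cell filter, doublets removed and cells thinned to 2000 UMIs. Comparisons of libraries were recomputed with thresholds of 3, doublets removed, equal cell weights, other totals, centred ratios and minimums of 20 and 200 UMIs. Shares of cycling members were recomputed with limits of 3 and 10 UMIs and at own depth. The comparison with other neutrophils was recomputed with a wider gate for them. Correlations, *Retnlg* steps, *Olfm4* shares and calls in cycling members had no alternative. Tools were Python 3.11.15, numpy 2.4.6, scipy 1.17.1, pandas 2.3.3, scanpy 1.11.5 and matplotlib 3.10.9. Promoters came from the RefSeq table for GRCm38.p6.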

Additional observations from a re-analysis of the deposited data

Results flagged for a closer look

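The deposited matrices hold 60 cells that met the rule on genes but fell outside the filter on cells, 7 in brain S3, 39 in the dura mater at S3, 7 in the brain at D3 and 7 in dura mater D3, of which 51 had too few genes, 7 too many and 2 too many mitochondrial transcripts. They stood out because the comparisons above do not use them.

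The genes of MHC class II moved in opposite directions at D3 in the 2 tissues. The log2 ratio of D3 over S3 was −1.47 in the dura mater and 1.65 in the brain for *Cd74*, −1.35 and 1.93 for *H2-Aa*, −1.61 and 2.06 for *H2-Ab1*, and −1.73 and 1.82 for *H2-Eb1*. The difference between the tissues was not tested. In each library 5 members held 65.0% to 79.2% of the MHC class II UMIs. *Stfa1*, a stefin whose near-identical neighbours make its counts uncertain, was at 2.65 in the dura mater and −2.89 in the brain, likewise not tested. It was detected in 6 members of brain S3, 12 of dura mater S3, 8 of brain D3 and 28 of dura mater D3, and 5 cells held 75.5% to 96.1% of its UMIs.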

How the results depend on the processing

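Of 112 main results under an alternative 84 stayed within their limits and 28 moved. Without the filter on cells members were 2.87% in brain S3, 8.20% in the dura mater at S3, 2.51% in the brain at D3 and 6.17% in dura mater D3 of all barcodes. With at least 10 cell cycle UMIs in place of 5 the share of cycling members was 4.65% in the sham brain, 9.60% in the dura mater at S3, 8.45% in the brain at D3 and 5.71% in dura mater D3, and at own depth the last 3 libraries gave 24.6%, 26.1% and 26.2%. Counts of called genes followed the number of genes tested. In the dura mater 165 were higher and 300 lower at D3 with at least 20 UMIs, 20 and 26 with at least 200, and centred ratios gave 63 lower. With doublets removed the dura mater gave 105 higher and 109 lower. In the brain 613 were higher and 191 lower with at least 20 UMIs and 80 and 27 with at least 200. Between the sham tissues 133 were higher in the brain and 115 lower with at least 200 UMIs, and 161 lower without cycling members, of which 111 were among the 425. Between the tissues at D3 822 were higher and 120 lower with at least 20 UMIs, 156 and 14 with at least 200, and 98 lower with other totals or 89 with centred ratios.

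For named genes, 1644 of 1718 values under an alternative kept call and direction, 54 lost the call, 13 gained one and 7 turned. All that turned were MHC class II genes. With doublets removed *H2-Aa* was at 0.0880 in the dura mater. Without cells that held genes of other types, D3 over S3 in the brain was −0.35 for *H2-Ab1*, −0.47 for *H2-Eb1* and −0.0438 for *Cd74*, and brain over dura mater at D3 was −0.0734 for *H2-Aa*, −0.12 for *H2-Ab1* and −0.12 for *H2-Eb1*. That alternative and the one without cycling members were chosen after seeing the data. Apart from the removals of cells, the causes were not tested.

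No paired analysis was possible because each group is 1 library, and a replicate cannot be left out either. The comparison with precursors was not run, since every library held fewer than 20 of them. Brain S3 is the shallowest set of members (1782859 UMIs against 2658917 to 5295125), so fewer genes reached the minimum in its comparisons. Free RNA differed between libraries, and its part in low levels was not tested.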
